A study of Mus musculus with 36 samples.

Results

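The microRNAs (miRNAs) of the miR-106b-25 cluster and miR-92b-3p, which has the seed of miR-25-3p, were followed in mouse CD4 T cells that lacked different Argonaute (AGO) proteins. The set was chosen by name and holds 7 of the 1966 mature miRNA names counted: both arms of miR-106b, miR-93 and miR-25 (mmu-miR-106b-5p, mmu-miR-106b-3p, mmu-miR-93-5p, mmu-miR-93-3p, mmu-miR-25-3p and mmu-miR-25-5p), and the 3p arm of miR-92b (mmu-miR-92b-3p). Each of the 7 had 1 entry in the count files. Their identifiers there are MIMAT0000386 and MIMAT0004582 for miR-106b-5p and -3p, MIMAT0000540 and MIMAT0004636 for miR-93-5p and -3p, MIMAT0000652 and MIMAT0017049 for miR-25-3p and -5p, and MIMAT0004899 for miR-92b-3p.

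The series compared miRNAs in 36 small RNA libraries of CD4+ TCRb+ cells sorted from the spleens of C57BL/6J mice, in 10 groups. The first experiment set wild-type cells (WT) against AGO134-/- cells, which lack AGO1, AGO3 and AGO4, with 4 and 4 libraries of naive cells, 4 and 4 of T helper 2 (Th2) cells cultured for 7 days, and 3 and 3 of Th2 cells cultured for 14 days. The other experiment set CD4Cre;R26LSLeYFP cells (the Cre control) against CD4Cre;R26LSLeYFP;AGO2f/f cells (AGO2 knockout) when naive (3 and 4 libraries) and after 5 days of Th2 culture by the sample labels (3 and 4), where the series text gives 7 days. Both genotypes of that experiment carry the CD4-Cre transgene, whose promoter is active in the T cell lineage, and the R26LSLeYFP reporter allele, and only the AGO2f/f cells carry the floxed gene. The labels used here give no age for the mice. miRNA counts do not measure the Ago genes, so the genotypes could not be checked in these libraries. The labels do not say that replicates came from separate mice, so p-values measure only the spread between these samples.

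An miRNA is cut from the hairpin of a longer transcript, and either arm of the hairpin, named 5p or 3p, can be loaded into an Argonaute protein and guide it to target mRNAs that pair with the seed near its 5′ end. AGO2 is the mouse Argonaute known for slicing activity. The miR-106b-25 cluster lies in Mcm7, a gene for a subunit of the replicative DNA helicase that is induced in dividing cells, and it is a paralog of the miR-17-92 and miR-106a-363 clusters. miRNAs of this group are known for targeting the cell cycle inhibitor Cdkn1a, the pro-apoptotic gene Bcl2l11 and components of TGF-beta signalling.

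All 7 names matched RefSeq entries for build GRCm38.p6, and their sequences are shown because they set which members share targets and which are hard to tell apart in counting. The capitals mark the seed, bases 2 to 8. miR-93-5p and miR-106b-5p carry the seed of miR-17:
miR-106b-5p: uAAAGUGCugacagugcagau
miR-93-5p: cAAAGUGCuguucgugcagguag
miR-25-3p and miR-92b-3p share another seed, with miR-92a-3p, the closest relative outside the set, printed beside them:
miR-25-3p: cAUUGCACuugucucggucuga
miR-92b-3p: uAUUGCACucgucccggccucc
miR-92a-3p: uAUUGCACuugucccggccug
The other 3 arms each have a seed of their own:
miR-106b-3p: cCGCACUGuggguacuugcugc
miR-25-5p: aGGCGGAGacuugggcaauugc
miR-93-3p: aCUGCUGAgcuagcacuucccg
Of 1679 mature names in the RefSeq table, 7 had the seed of miR-93-5p, 6 had that of miR-25-3p, and each of the remaining 3 seeds occurred once. miR-106b-5p and miR-93-5p were identical at 16 of 21 positions counted from the 5′ end, and miR-92b-3p and miR-92a-3p at 19 of 21. miR-25-3p matched miR-92a-3p at 18 of 21 positions. Close relatives can share reads under counting by sequence, so separate values of miR-92b-3p and miR-92a-3p, and of miR-106b-5p and the miR-17 group, are uncertain to that extent.

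The 3 hairpins of the cluster lie on the minus strand of chromosome 5 (build GRCm38.p6) within 498 bases, from 138165321 to 138165818, inside Mcm7 (138164583 to 138172422). Mir106b (138165737 to 138165818) lies in an intron of Mcm7, and Mir93 (138165523 to 138165610) and Mir25 (138165321 to 138165404) lie in introns of its principal transcript and overlap an exon only of transcripts annotated as retained introns. Mir92b stands apart on chromosome 3, minus strand, from 89227116 to 89227198, and overlaps no other annotated gene. The Mir25 hairpin is printed with both mature arms in capitals, the 5p arm first, since the results below turn on the share of its 5p arm:
Mir25: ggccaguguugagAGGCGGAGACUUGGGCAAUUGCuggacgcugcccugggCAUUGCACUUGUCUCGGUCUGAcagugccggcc

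AGO134 libraries held 64264 to 273724 miRNA counts and AGO2 libraries 596 to 58357, with 8643, 596 and 2156 in naive Cre cells. At each stage every AGO134 knockout library held fewer counts than every WT library. In naive cells knockout libraries held 64264 to 195122 counts and WT libraries 196357 to 243748. At day 7 they held 125803 to 190976 and 215215 to 273724, and at day 14 177815 to 238454 and 254369 to 265008. In Th2 cells AGO2 knockout libraries held 11218 to 40720 counts and Cre libraries 39794 to 58357. The part of depth in the genotype differences was not tested. A miRNA at 0 counts may have up to 3, which is 11.0 to 46.7 CPM (counts per 1000000 miRNA counts) in AGO134 libraries and 51.4 to 5034 CPM in AGO2 libraries. The exact intervals of shares and this limit cover counting error only, while the 95% intervals of log2 fold changes come from the edgeR fit and include the spread between replicates. Further entries named STD, whose meaning the labels do not give, took 32.0% to 86.7% of all counts. A single miRNA, miR-5099, took 0.84% to 1.87% of the miRNA counts in AGO134 libraries and 9.85% to 65.8% in AGO2 libraries. At day 5 its share was 13.5%, 9.85% and 10.9% in Cre and 16.7%, 52.3%, 21.4% and 11.8% in AGO2 knockout libraries. That share is missing from the counts of the other miRNAs, and its part in the results was not tested. Levels below are CPM after TMM normalisation (edgeR's scaling to a common set of miRNAs), with values in the order of the library numbers or letters, and changes are log2 fold changes relative to the other miRNAs. A member was called when the adjusted p of edgeR's quasi-likelihood test was under 0.05. All 6 T cell marker miRNAs were counted in every group, with summed levels from 19187 to 215724 CPM in naive cells and 25001 to 68671 CPM in Th2 cells. For the 4 red cell and platelet markers, counting the identical miR-486a-5p and miR-486b-5p once, the summed level ran from 0 to 804 CPM. Over all libraries miR-486a-5p had 1059 counts, miR-144-3p 91, miR-451a 3 and miR-144-5p 1. The 2 myeloid markers reached at most 42.6 CPM, and the 5 endothelial and stromal markers ran from 0 to 1027 CPM. The 5 epithelial markers, of the miR-200 family, ran from 3105 to 4342 CPM in naive cells of the AGO134 experiment and from 0 to 1153 CPM elsewhere. Their part in the results was not tested. In bulk libraries fewer cells of a type and less RNA per cell cannot be told apart.

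In naive WT cells miR-25-3p was the most abundant member and miR-93-5p the next, and of the arms of miR-106b the 3p arm stood above the 5p arm. miR-25-3p, the main arm of its hairpin, stood at 24234, 27496, 25049 and 31624 CPM. miR-93-5p stood at 13126, 13443, 11907 and 13840.4 CPM, and miR-106b-3p at 3952, 3916, 3819 and 3810.0 CPM. The ranges of these 3 did not overlap. The order of members is one of counts, since how evenly different sequences entered the libraries was not measured. miR-92b-3p reached 1047, 949, 1092 and 1101 CPM, miR-106b-5p 622, 618, 532 and 447 CPM and miR-25-5p 302, 296, 347 and 388 CPM. These 3 also kept separate ranges. miR-93-3p had only 4, 7, 7 and 2 counts, or 21.0 ± 9.77 CPM (SD, n = 4), close to the limit of detection. It did not pass the filter on low counts in any fit, with 0 to 16 counts per library over the whole series, so 6 members were tested in the AGO134 experiment.

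The 3 hairpins of the cluster, which share a host gene, differed in the share of their minor arm. The minor arm took 1.22% (309 of 25341 counts, exact 95% interval 1.09% to 1.36%) of the miR-25 counts in naive WT cells, as miR-25-5p. It took 0.164% (20 of 12211 counts, exact 95% interval 0.1% to 0.253%) of the miR-93 counts, as miR-93-3p. For miR-106b the 5p arm was the minor one, at 12.6% (526 of 4159 counts, exact 95% interval 11.7% to 13.7%). miR-106b-3p exceeded miR-106b-5p in each of the 22 libraries of the AGO134 experiment.

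**Figure D1:**
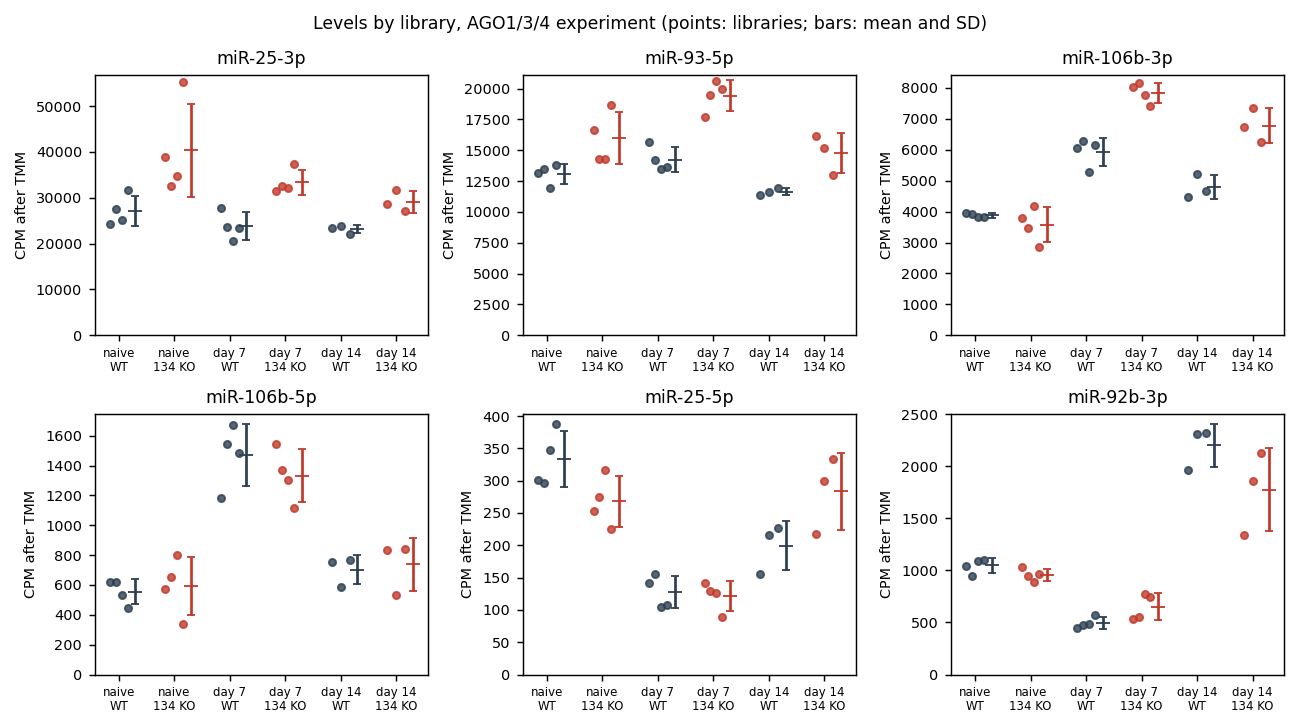
Level of 6 members in the 22 libraries of the AGO134 experiment, by group, on linear axes in CPM after TMM normalisation (dark: WT, red: AGO134 knockout). Points are libraries, and bars show the mean and SD. miR-106b-5p is highest at day 7, miR-25-5p is lowest there, and miR-92b-3p is highest at day 14.

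Over 7 days of Th2 culture both arms of miR-106b rose in WT cells, while miR-25-5p and miR-92b-3p fell and the 2 most abundant members did not pass the test. With naive WT cells as reference, 4 of the 6 tested members were called, 2 in each direction, where 76.4% of the 382 miRNAs tested were called. miR-106b-5p went from 622, 618, 532 and 447 CPM to 1182, 1546, 1673 and 1485 CPM, with no overlap, a log2 fold change of 1.40 (SE 0.18, adjusted p = 5.7e-08). Its partner miR-106b-3p went to 6057, 6278, 5275 and 6145 CPM, a smaller change of 0.62 (SE 0.11, adjusted p = 1e-05), also with no overlap. miR-25-5p fell to 142, 156, 105 and 108 CPM, less than the lowest naive library in every day 7 library, with a log2 fold change of -1.38 (SE 0.18, adjusted p = 8e-08). miR-92b-3p, which is transcribed from its own locus, fell to 445, 472, 487 and 571 CPM, a log2 fold change of -1.08 (SE 0.15, adjusted p = 2.6e-07). The changes of miR-25-3p, -0.18 (95% interval -0.45 to 0.09), and of miR-93-5p, 0.12 (-0.09 to 0.34), did not pass. The epithelial markers were lower at day 7 (812 to 1017 CPM) than in naive WT cells (3193 to 3485 CPM), and the T cell markers likewise (52188 to 55458 CPM), and their part in these changes was not tested.

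Between day 7 and day 14 miR-92b-3p and miR-25-5p rose in WT cells and both arms of miR-106b and miR-93-5p fell. Of 6 members 5 were called, 2 higher and 3 lower, where 50.0% of all tested miRNAs were called. miR-92b-3p reached 1963, 2313 and 2325 CPM at day 14, a log2 fold change of 2.15 (SE 0.16, adjusted p = 4.9e-12) from day 7 and of 1.07 (SE 0.15, adjusted p = 4.5e-07) from naive cells. The day 14 libraries lay above all naive and day 7 libraries of WT cells. miR-25-5p rose to 156, 215 and 226 CPM, by 0.65 (SE 0.20, adjusted p = 0.0084), with 1 day 14 library inside the day 7 range, a call lost in 2 of 9 settings (0.50 when scaled by library size and 0.45 when scaled to the STD entries). miR-106b-5p fell to 751, 589.5 and 768 CPM, a change of -1.07 (SE 0.19, adjusted p = 3.9e-05), and no day 14 library reached the lowest of day 7. Smaller decreases were called for miR-106b-3p, -0.31 (SE 0.12, adjusted p = 0.0281), and miR-93-5p, -0.29 (SE 0.11, adjusted p = 0.0357). Both of these calls were lost in 4 of 9 alternative settings, and on leaving out single libraries in 4 of 7 cases for miR-106b-3p and 5 of 7 for miR-93-5p. Against naive cells, 3 of 6 members were called at day 14 with 77.7% of all tested miRNAs: miR-92b-3p, miR-106b-3p (0.30, SE 0.12, adjusted p = 0.0199) and, lower, miR-25-5p (-0.74, SE 0.19, adjusted p = 0.00083). The miR-25-5p call was lost in 2 of 9 settings, with -0.31 under scaling to the STD entries. The miR-106b-3p call was lost without naive library 1, 2 or 3 or day 14 library 2 (0.22 to 0.27).

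In AGO134 knockout cells both arms of miR-106b also rose by day 7, and miR-25-5p and miR-92b-3p fell. At day 7 against naive cells 5 of 6 members were called, with 74.1% of all tested miRNAs. Both arms of miR-106b rose, miR-106b-3p from 3799, 3468, 4183 and 2857 to 8022, 8160.4, 7776 and 7417 CPM by 1.12 (SE 0.11, adjusted p = 5.3e-10) and miR-106b-5p by 1.10 (SE 0.19, adjusted p = 8.8e-06). miR-93-5p rose by 0.29 (SE 0.11, adjusted p = 0.0174), a call lost in 5 of 9 settings and on leaving out naive knockout library 1, 2 or 3 or day 7 library 3. miR-25-5p changed by -1.15 (SE 0.22, adjusted p = 3.4e-05) and miR-92b-3p by -0.56 (SE 0.16, adjusted p = 0.0028), which was 0.20 under scaling to the STD entries. From day 7 to day 14, where 44.8% of all tested miRNAs were called, 4 of 6 members were called. miR-92b-3p rose by 1.45 (SE 0.16, adjusted p = 4.8e-08) and miR-25-5p by 1.19 (SE 0.22, adjusted p = 6.6e-05), while miR-106b-5p changed by -0.85 (SE 0.20, adjusted p = 0.00089) and miR-93-5p by -0.39 (SE 0.12, adjusted p = 0.006). The miR-93-5p call was lost in 3 of 9 settings and without day 7 library 3 (-0.31) or day 14 library 4 (-0.24). At day 14 against naive cells, with 72.5% of all tested miRNAs called, miR-106b-3p (0.91, SE 0.12, adjusted p = 9.5e-08) and miR-92b-3p (0.89, SE 0.16, adjusted p = 2.1e-05) were higher and miR-25-3p (-0.47, SE 0.14, adjusted p = 0.0051) lower. The miR-25-3p decrease was not found in 4 of 9 settings: the call was lost in 3 of them, and scaling to the STD entries gave 0.35. The day 7 and day 14 comparisons share libraries, as do those with the naive groups.

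The comparison of AGO134 knockout with WT cells asked which miRNAs depend on the 3 Argonautes other than AGO2. Relative to the other miRNAs, every member called in these comparisons was higher in the knockout, and all of them were abundant arms of the cluster. In naive cells 1 of 6 tested members was called, where 18.3% of the 382 tested miRNAs were called. miR-25-3p stood at 38888, 32656, 34834 and 55163 CPM in knockout cells and 24234, 27496, 25049 and 31624 CPM in WT cells, so every knockout library lay above every WT library. The log2 fold change was 0.57 (SE 0.13, adjusted p = 0.0033), and 0.42 without knockout library 4, the highest and, at 64264 counts, the shallowest library of the experiment. With the 2 groups fitted alone it was 0.63 and not called. miR-93-5p had a value of 0.28 (SE 0.11, adjusted p = 0.0611), also with all 4 knockout libraries above the WT ones, at 16664, 14299, 14281 and 18628 CPM. The summed T cell markers also lay higher, from 140059 to 215724 CPM in knockout and from 99936 to 121957 CPM in WT libraries, and the STD entries took 46.9% to 56.9% and 40.2% to 43.9% of the deposited counts. Their part in the result was not tested. The other tested members had values between -0.26 (miR-25-5p, 95% interval -0.65 to 0.12) and 0.16 (miR-106b-5p, -0.23 to 0.56).

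At day 7, 3 of 6 members were called, all higher in the knockout, with 14.4% of all tested miRNAs called. miR-93-5p reached 17715, 19439, 20629 and 19926 CPM against 15656, 14207, 13461 and 13648 CPM in WT cells, a log2 fold change of 0.45 (SE 0.11, adjusted p = 0.0062). miR-106b-3p reached 8022, 8160.4, 7776 and 7417 CPM, a change of 0.40 (SE 0.11, adjusted p = 0.0129), and miR-25-3p 31499.8, 32506, 32108 and 37324 CPM against 27869, 23729, 20554 and 23337 CPM, a change of 0.48 (SE 0.13, adjusted p = 0.0149). For these 3 miRNAs no knockout library fell into the WT range. The share of all tested miRNAs whose levels did not overlap was not counted, here or in the other comparisons of levels. Such separation is therefore a description only. The miR-25-3p call was lost without WT library 2, 3 or 4 or knockout library 1 or 4 (0.40 to 0.47), and the miR-106b-3p call without WT library 3 (0.34) or knockout library 1 (0.29). miR-106b-5p, -0.14 (95% interval -0.50 to 0.22), and miR-25-5p, -0.03 (-0.48 to 0.41), were not called, and neither was miR-92b-3p, 0.39 (SE 0.16, adjusted p = 0.101). The summed T cell markers ran from 63798 to 68671 CPM in knockout and from 52188 to 55458 CPM in WT libraries. STD entries took 40.5% to 45.4% and 35.7% to 37.7% of the deposited counts. Their part in the day 7 result was not tested.

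At day 14, 2 of 6 members were called, both higher, with 19.6% of all tested miRNAs called. miR-106b-3p stood at 6734, 7366 and 6245 CPM in knockout libraries and 4475, 5219 and 4663 CPM in WT libraries, a log2 fold change of 0.50 (SE 0.13, adjusted p = 0.0041). miR-93-5p stood at 16183, 15154 and 13008 CPM and 11394, 11605 and 11945 CPM, 0.34 (SE 0.12, adjusted p = 0.0453), a call lost in 8 of 9 settings and on leaving out any library but knockout library 4 (0.27 to 0.35). Neither pair of groups overlapped. miR-25-3p, at 28582, 31757 and 27100.4 against 23439, 23831 and 22152 CPM, had a value of 0.33 (SE 0.15, adjusted p = 0.125). miR-92b-3p was at 1338, 1859 and 2124 against 1963, 2313 and 2325 CPM, with overlap and a value of -0.31 (SE 0.17, adjusted p = 0.192). The summed T cell markers overlapped, from 44270 to 58977 CPM in knockout and from 44184 to 46448 CPM in WT libraries. STD entries took 41.0% to 45.2% and 37.0% to 39.6% of the deposited counts. Their part in the day 14 result was not tested.

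Most of these genotype differences held their direction only relative to the other miRNAs, and miR-106b-3p at day 14 kept its direction but not its call when scaled to the STD entries. Scaled to the STD entries instead, the median of all tested miRNAs moved to -0.77 in naive cells, -0.63 at day 7 and -0.44 at day 14, from -0.05, -0.02 and 0.01 under TMM. miR-25-3p then had -0.27 in naive cells and -0.14 at day 7, and miR-93-5p had -0.17 at day 7, each above the median of that scaling. miR-93-5p had -0.53 in naive cells and -0.12 at day 14, and miR-106b-3p had -0.21 at day 7 and 0.05 at day 14. The split of calls over all miRNAs in naive cells was 31 higher and 39 lower under TMM, 8 and 80 when scaled by library size, and 0 and 204 with the STD entries. At day 7 it was 33 and 22, then 4 and 43, then 1 and 128, and at day 14 it was 34 and 41, then 22 and 54, then 2 and 72. With loess offsets, which remove a trend with abundance, miR-25-3p had 0.16 in naive cells and 0.06 at day 7 and was not called. All 3 calls at day 7 were also lost when scaled by library size (0.10 to 0.18) and with no filter on low counts (0.31 to 0.39).

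**Figure D2:**
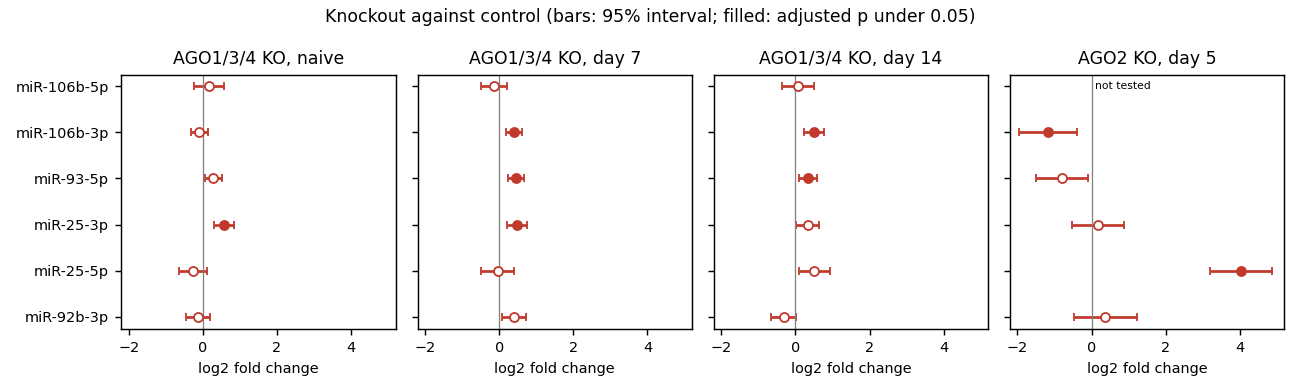
Log2 fold change of knockout against control for 6 members in 4 comparisons, with 95% intervals (filled points: adjusted p under 0.05 in edgeR's quasi-likelihood test, open points: not called). The naive AGO2 comparison is left out for its low counts. miR-25-5p at 4.04 in AGO2 knockout Th2 cells lies far from the other points.

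The difference between AGO134 effects at 2 stages was tested itself. Between day 7 and naive cells no member was called, where 2.36% of the 382 miRNAs were, and 2 members had an unadjusted p under 0.05, miR-106b-3p (0.50, SE 0.16, adjusted p = 0.0718) and miR-92b-3p (0.52, SE 0.22, adjusted p = 0.265). DESeq2 called 1 member there. Between day 14 and day 7, 1 of 6 members was called, with 12.0% of all miRNAs. For miR-92b-3p the knockout effect was 0.39 at day 7 and -0.31 at day 14, a difference of -0.70 (SE 0.23, adjusted p = 0.0428). The call was lost in 3 of 7 settings and on leaving out 9 of the 14 libraries one at a time, with values from -0.78 to -0.50.

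The arm ratio of miR-25 is taken within a library, so the scaling between libraries does not enter it. In the AGO134 experiment the 5p arm had a smaller share in every knockout library than in every WT library when naive and at day 7, although neither test passed the adjustment. In naive cells the share of miR-25-5p was 1.23%, 1.06%, 1.37% and 1.21% in WT libraries and 0.648%, 0.836%, 0.902% and 0.406% in knockout libraries, so the groups did not overlap. The log2 ratio of miR-25-3p to miR-25-5p was 6.34 ± 0.15 (SD, n = 4) and 7.19 ± 0.50 (SD, n = 4), a difference of 0.85 (two-sided exact permutation p = 0.0286, adjusted p = 0.129 over 104 ratios and comparisons). The unadjusted p is the smallest that 4 against 4 libraries allow. At day 7 the shares were 0.505%, 0.654%, 0.509% and 0.461% in WT and 0.447%, 0.397%, 0.391% and 0.237% in knockout libraries, again without overlap, and the log2 ratio differed by 0.54 (two-sided exact permutation p = 0.0286, adjusted p = 0.129). Without single libraries the difference ran from 0.62 to 0.99 in naive cells and from 0.35 to 0.64 at day 7. At day 14 the shares overlapped, at 0.660%, 0.896% and 1.01% and 0.755%, 0.933% and 1.22%, with a difference of -0.18 (two-sided exact permutation p = 0.5, adjusted p = 0.626). Arm ratios that did not overlap between genotypes were found for 16.9% of 118 hairpins in naive cells, 16.5% of 139 at day 7 and 21.2% of 132 at day 14, among hairpins with at least 10 counts on each arm over both groups.

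Within the AGO134 experiment the share of miR-25-5p was lowest at day 7 of culture. It went from 1.22% (309 of 25341 counts, exact 95% interval 1.09% to 1.36%) in naive WT cells to 0.533% (153 of 28697 counts, exact 95% interval 0.452% to 0.624%) at day 7 and stood at 0.851% (166 of 19505 counts, exact 95% interval 0.727% to 0.990%) at day 14, summed over libraries. In knockout cells the summed shares were 0.751%, 0.378% and 0.980%. No WT library of 1 stage overlapped with another stage, although none of the 104 ratio tests passed the adjustment (smallest adjusted p = 0.129, exact permutation tests). For miR-106b the 5p share at day 7 was 16.3%, 19.8%, 24.1% and 19.5% in WT and 16.2%, 14.4%, 14.4% and 13.1% in knockout libraries, and the log2 ratio of 5p to 3p differed by -0.54 without overlap (two-sided exact permutation p = 0.0286, adjusted p = 0.129). The miR-93 ratio rests on 0 to 16 counts of miR-93-3p per library. Its log2 5p to 3p difference at day 7 was 1.16, without overlap (two-sided exact permutation p = 0.0286, adjusted p = 0.129).

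**Figure D3:**
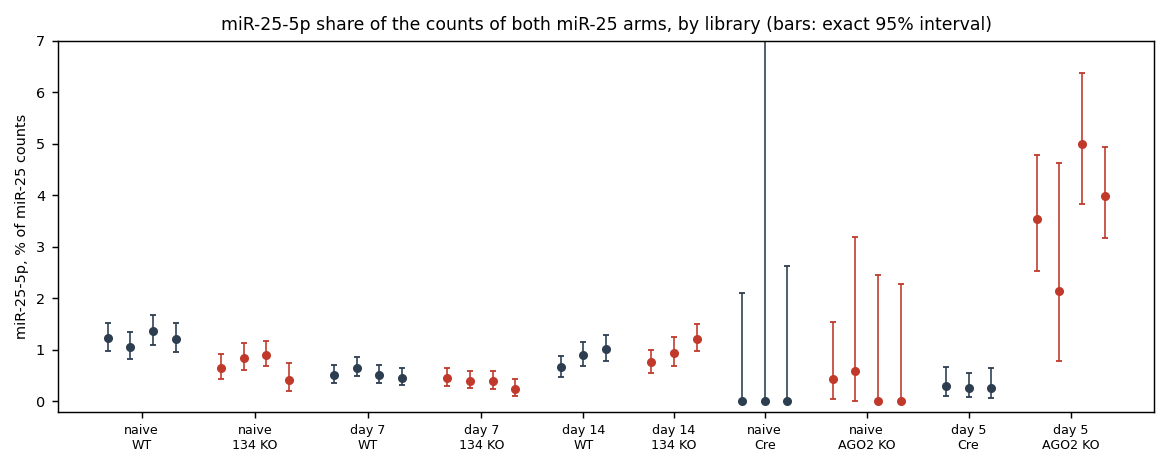
Share of miR-25-5p in the counts of both miR-25 arms, in percent, for each of the 36 libraries by group, with exact (Clopper-Pearson) 95% intervals (dark: control, red: knockout). The interval of naive Cre library B, with 22 counts in all, runs past the top of the axis. The 4 AGO2 knockout Th2 libraries lie between 2.15% and 4.99%, and every other library lies below 1.4%.

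Over the 5 comparisons of genotypes, the largest change called in any member was that of the minor arm miR-25-5p in AGO2 knockout Th2 cells. In Th2 cells at day 5 it stood at 84.8, 70.3 and 102 CPM in the 3 Cre libraries and at 1445, 789, 1559 and 1621 CPM in the 4 AGO2 knockout libraries. These levels rest on 6, 6 and 4 counts in Cre and 40, 6, 60 and 81 counts in knockout libraries. The lowest knockout library lay above the highest Cre library, and the log2 fold change was 4.04 (SE 0.41, adjusted p = 1.8e-07), or 16.4-fold. The other arm of the same hairpin, miR-25-3p, was at 27742, 27672 and 40355 CPM in Cre and 39409.9, 35889, 29677 and 39054 CPM in knockout libraries. These ranges overlapped, and the value was 0.17 (95% interval -0.53 to 0.88, adjusted p = 0.682). The STD entries took 52.8% to 64.8% of the deposited counts in knockout and 32.0% to 38.5% in Cre libraries, and scaling to them moved the median of all tested miRNAs from 0.06 to -1.59, miR-25-3p to -1.49 and miR-92b-3p to -1.37. Over all miRNAs, calls split into 19 higher and 25 lower under TMM, 13 and 29 when scaled by library size, and 4 and 65 with the STD entries. miR-25-5p kept its call in all 9 alternative settings, with values from 2.40 (STD scaling) to 4.48 (loess offsets). It passed the filter on low counts only through knockout libraries, the group where it was high. The filter removed it when knockout library D, F or G was left out. The reported p is therefore tied to that selection. Without that filter its values over the 7 libraries left out in turn ran from 3.58 (without knockout library G) to 4.01.

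The share of miR-25-5p in its hairpin's counts showed the same difference within libraries. It was 0.305%, 0.253% and 0.253% in Cre libraries and 3.54%, 2.15%, 4.99% and 3.99% in knockout libraries. Summed, this made 0.270% (16 of 5919 counts, exact 95% interval 0.155% to 0.439%) in Cre and 4.03% (187 of 4644 counts, exact 95% interval 3.48% to 4.63%) in knockout cells. The log2 ratio of miR-25-3p to miR-25-5p was 8.40 ± 0.14 (SD, n = 3) and 4.74 ± 0.48 (SD, n = 4), a difference of -3.66 (two-sided exact permutation p = 0.0571, adjusted p = 0.129), and 0.0571 is the smallest p that 3 against 4 libraries allow. Leaving out single libraries gave -3.88 to -3.49. Among the 51 hairpins with at least 10 counts on each arm, summed over both groups, this was the largest shift towards the 5p arm. The median was -0.16 for the log2 5p to 3p ratio. An arm can meet that limit through the group where it is high, and miR-25-5p had 187 counts in knockout and 16 in Cre libraries. The rank is therefore a description only. Of the 51 hairpins 21.6% had ratios that did not overlap between the groups.

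The other cluster arms that could be tested were lower or did not pass in AGO2 knockout Th2 cells. Of 5 tested members 2 were called, 1 in each direction, where 44.9% of the 98 tested miRNAs were called, so the share of members was near that of all miRNAs. miR-106b-3p stood at 721, 726 and 946 CPM in Cre and 506, 394, 338 and 220.2 CPM in knockout libraries, from 51, 62 and 37 and 14, 3, 13 and 11 counts. The groups did not overlap, and the log2 fold change was -1.18 (SE 0.37, adjusted p = 0.0132). The call was lost without knockout library F (-1.06, adjusted p = 0.0583) or G (-0.83, adjusted p = 0.116). miR-93-5p, at 3463, 4616 and 5575 against 2203, 3812, 2521 and 2202 CPM, had a value of -0.80 (SE 0.33, adjusted p = 0.051), just outside the threshold, with 1 knockout library inside the Cre range. It passed in 6 of 9 alternative settings. miR-92b-3p had a value of 0.36 (95% interval -0.48 to 1.21). The log2 ratio of miR-25-3p to miR-93-5p within a library was 3.0, 2.58 and 2.85 in Cre and 4.15, 3.21, 3.55 and 4.14 in knockout libraries, a difference of 0.95 without overlap (two-sided exact permutation p = 0.0571, adjusted p = 0.129).

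miR-106b-5p and miR-93-3p were too low to be tested in the AGO2 experiment. miR-106b-5p had 3, 0 and 4 counts in Cre and 3, 0, 6 and 3 in knockout Th2 libraries, and miR-93-3p had 0 counts in all 7 of them. The 5p share of miR-106b was 4.46% (7 of 157 counts, exact 95% interval 1.81% to 8.97%) in Cre and 22.6% (12 of 53 counts, exact 95% interval 12.3% to 36.2%) in knockout cells. By library the share was 5.56%, 0% and 9.76% in Cre and 17.6%, 0%, 31.6% and 21.4% in knockout cells, so the groups overlapped. Knockout library E had 3 counts of the hairpin in all, which sets its log2 ratio through the pseudocount, so no test of the ratio is given.

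**Figure D4:**
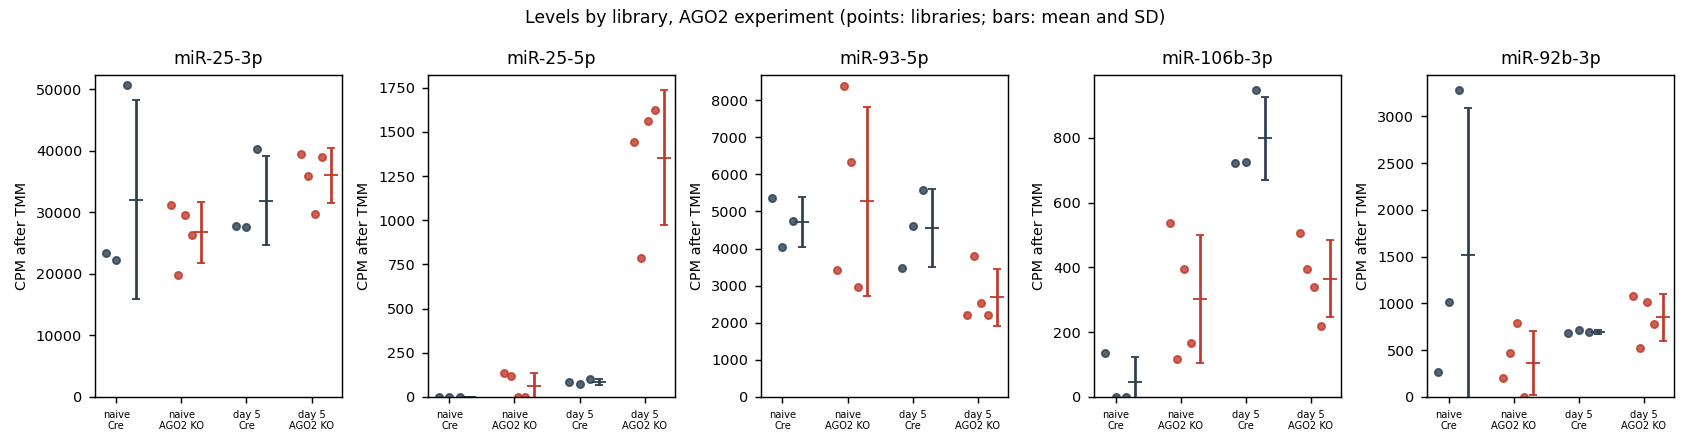
Level of 5 members in the 14 libraries of the AGO2 experiment, by group, on linear axes in CPM after TMM normalisation (dark: Cre, red: AGO2 knockout). Points are libraries, and bars show the mean and SD, cut at 0. The 4 knockout libraries at day 5 hold the 4 highest levels of miR-25-5p, and miR-92b-3p in naive Cre cells rests on 2, 1 and 9 counts.

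In naive cells of the AGO2 experiment the counts were low and the intervals wide. None of the 5 tested members was called by edgeR, where 9.18% of 98 miRNAs were, and 1 had an unadjusted p under 0.05, miR-92b-3p (-1.89, SE 0.82, adjusted p = 0.152). The DESeq2 test called 0 as well. miR-25-5p had 0 counts in all 3 Cre libraries, 0 of 335 counts of the hairpin with an exact 95% interval up to 1.10%, and 2, 1, 0 and 0 counts in the knockout libraries, or 0.316% (3 of 949 counts, exact 95% interval 0.0652% to 0.921%). miR-25-3p was at 23363, 22217 and 50671 CPM in Cre and 31235, 19879.8, 29501 and 26377 CPM in knockout libraries, a value of -0.27 (95% interval -1.0 to 0.45). miR-93-5p had 0.10 (-0.73 to 0.92), from 40, 4 and 13 and 51, 72, 32 and 18 counts.

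Over the 5 days of culture miR-25-5p rose in AGO2 knockout cells, and this was not shown to differ from the change in Cre cells. In AGO2 knockout cells 3 of 5 members were called against naive cells, with 51.0% of all miRNAs. miR-25-5p changed by 3.99 (SE 0.58, adjusted p = 1.8e-05), from a naive level that rests on 3 counts in all. It passed in 8 of 8 settings and in the 5 of 8 fits with a library left out in which it passed the filter on low counts. In the reported fit it passed that filter only through the Th2 knockout libraries, where it was high. miR-93-5p changed by -1.01 (SE 0.33, adjusted p = 0.0152). The miR-93-5p call was lost without Th2 knockout library D or G, at -0.91 each, and its value was 0.04 under scaling to the STD entries. miR-92b-3p had 1.45 (SE 0.59, adjusted p = 0.0459), a call lost on leaving out any of the 8 libraries. In Cre cells 1 of 5 members was called, with 56.1% of all miRNAs: miR-106b-3p at 3.09 (SE 1.03, adjusted p = 0.0158), from 1 count in the 3 naive libraries, a call lost without naive library A (7.42) or C (2.54). The difference between the AGO2 effects in Th2 and naive cells was called for no member, with 12.2% of all miRNAs called, and miR-106b-3p (-3.06, SE 1.24, adjusted p = 0.103) and miR-92b-3p (2.25, SE 0.92, adjusted p = 0.103) had an unadjusted p under 0.05. DESeq2 called none there. For miR-25-5p this difference was -0.20 (adjusted p = 0.872), with values from -0.81 to 3.47 over 8 alternative settings. It had 0 counts in the 3 naive Cre libraries, so its naive effect is poorly determined. The difference therefore shows neither that the naive and Th2 effects are alike nor that they differ. In Cre cells the change of miR-25-5p from 0 counts in 3 naive libraries to 16 counts in 3 Th2 libraries was not called (adjusted p = 0.255).

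The effects of the 2 knockouts in Th2 cells were compared in 1 fit over all 36 libraries. The stages differ, 5 days for AGO2 and 7 days for AGO134, and so do the control genotype and the depth, so knockout and experiment cannot be told apart. Of 6 tested members 3 were called, with 23.1% of 376 miRNAs. For miR-25-5p the AGO2 effect exceeded the AGO134 effect by 4.24 (SE 0.41, adjusted p = 1.5e-11). For miR-106b-3p and miR-93-5p it was lower, by -1.53 (SE 0.30, adjusted p = 7.8e-05) and -1.23 (SE 0.28, adjusted p = 0.00072). These calls held in 8 of 8 alternative settings and on leaving out each of the 15 libraries in turn. miR-25-3p, -0.25 (95% interval -0.86 to 0.36), and miR-92b-3p, 0.05 (-0.64 to 0.73), were not called.

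Shares of the seed families show how much of the counts with each seed came from the members. In WT cells miR-93-5p and miR-106b-5p together made up 86.2% ± 2.07 (SD, n = 4) of the counts with the miR-17 seed when naive, 81.2% ± 2.93 (SD, n = 4) at day 7 and 84.0% ± 3.42 (SD, n = 3) at day 14. miR-17-5p, miR-20a-5p, miR-20b-5p and miR-106a-5p made up the rest. In the miR-25 seed family, miR-25-3p and miR-92b-3p supplied 82.7%, 85.2%, 83.1% and 87.0% in naive WT libraries, 63.1%, 58.4%, 57.5% and 58.1% at day 7 and 68.1%, 70.9% and 71.2% at day 14. The 3 stages did not overlap, with differences of -25.3 percentage points from naive to day 7 (two-sided exact permutation p = 0.0286, adjusted p = 0.129) and 10.8 from day 7 to day 14 (two-sided exact permutation p = 0.0571, adjusted p = 0.129). Over the first 7 days miR-363-3p, the family member from the miR-106a-363 cluster, rose from 4135, 3739, 3961 and 3507 to 14807, 14631, 13831 and 14759.5 CPM, by 1.92 (SE 0.12, adjusted p = 1.1e-14). The mean share of miR-25-3p and miR-92b-3p also fell in AGO134 knockout cells, from 86.3% when naive to 62.6% at day 7. The AGO2 experiment, with shallow naive libraries, went the other way. In Cre cells the share was 69.2% when naive and 88.1% at day 5, without overlap (two-sided exact permutation p = 0.1, adjusted p = 0.200). In AGO2 knockout cells it was 75.8% and 82.5%, with overlap (two-sided exact permutation p = 0.2, adjusted p = 0.315). Genotype differences in either share overlapped between the groups in all 5 comparisons.

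**Figure D5:**
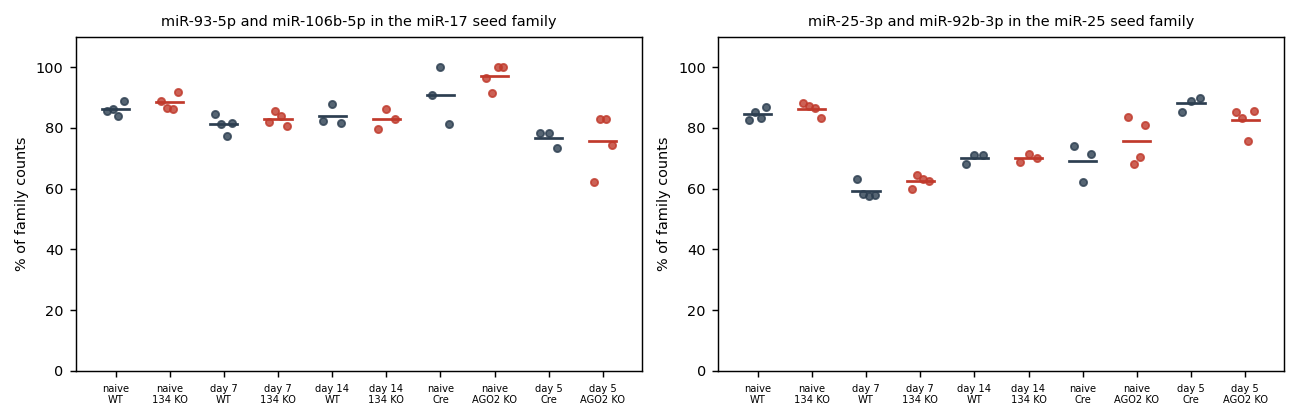
Share of the members in the counts of their seed family, in percent, by library and group (lines: group mean; dark: control, red: knockout). Left, miR-93-5p and miR-106b-5p among 6 miRNAs with the miR-17 seed, and right, miR-25-3p and miR-92b-3p among 6 with the miR-25 seed. The right panel drops from over 82% in naive WT libraries to under 64% at day 7. In Cre cells it lies higher at day 5 than when naive.

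Within the miR-25 seed family the ratio of miR-92b-3p to miR-25-3p was lower in every AGO134 knockout library than in every WT library when naive and at day 14, although the tests did not pass the adjustment. The log2 ratio of miR-92b-3p to miR-25-3p was -4.53, -4.85, -4.52 and -4.84 in naive WT and -5.23, -5.10, -5.29 and -5.82 in naive knockout libraries, a difference of -0.67 without overlap (two-sided exact permutation p = 0.0286, adjusted p = 0.129). At day 14 the difference was -0.66, also without overlap (two-sided exact permutation p = 0.1, adjusted p = 0.200), and 0.1 is the smallest p that 3 against 3 libraries allow. At day 7 it was -0.10 with overlap (two-sided exact permutation p = 0.686, adjusted p = 0.766). The ratio uses the levels given above. In naive cells miR-25-3p was called at 0.57, while miR-92b-3p at -0.13 was not called. At day 14 neither was called, at 0.33 and -0.31. How often ratios of other pairs of miRNAs did not overlap was not counted.

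Of the 13 listed paralogs outside the set, 11 were tested in the AGO134 experiment and 3 in the AGO2 experiment. In the genotype comparisons 1 was called higher in naive AGO134 knockout cells, 2 at day 14, and 2 in AGO2 knockout Th2 cells, 1 in each direction. By edgeR 0 were called at day 7 and in naive AGO2 knockout cells, where 2 and 2 had an unadjusted p under 0.05. Over all tested miRNAs 18.3% were called in naive AGO134 knockout cells, 14.4% at day 7, 19.6% at day 14, and 9.18% and 44.9% in naive and Th2 AGO2 knockout cells. miR-92a-3p, made from the miR-17-92 and miR-106a-363 clusters, had 2142, 1882, 1625 and 8571 CPM in naive AGO134 knockout and 1125, 1170.0, 1261 and 1319.7 CPM in WT libraries, a log2 fold change of 1.46 (SE 0.34, adjusted p = 0.0034). Without knockout library 4 it was 0.66 and still called, while scaling to the STD entries (0.46) lost the call. With all locus entries fitted apart, the first listed entry of miR-92a-3p had 0.26 and was not called. The reported values are those of its entry with the highest total, so they do not hold for every entry of this name. miR-92a-3p was also higher at day 14, by 1.14 (SE 0.38, adjusted p = 0.0316), and in AGO2 knockout Th2 cells, by 1.14 (SE 0.36, adjusted p = 0.0131). Both calls were unstable, lost on leaving out any library but knockout library 2 at day 14 (0.95 to 1.28) and any 1 of the 3 Cre libraries (0.74 to 0.97) in the AGO2 comparison, where scaling to the STD entries gave -0.58. miR-20b-5p was higher at day 14 by 0.70 (SE 0.23, adjusted p = 0.0303), a call lost without WT library 2 or 3 or knockout library 2 (0.40 to 0.67). miR-363-3p was lower in AGO2 knockout Th2 cells, -1.17 (SE 0.35, adjusted p = 0.0091), lost without knockout library D (-0.88) or G (-0.91). Over the first 7 days of culture in WT cells 10 of the 11 tested paralogs were higher and 0 lower, against 2 higher and 2 lower among the 6 members and 151 higher and 141 lower (76.4% called) among all 382 tested miRNAs. From day 7 to day 14, 7 of 11 paralogs were lower and 0 higher, where 96 of all tested miRNAs were higher and 95 lower (50.0% called).

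The miRNAs whose levels were most like those of 4 members were found by Pearson correlation of log2 CPM over the 22 libraries of the AGO134 experiment, among 376 candidates. The libraries form 6 groups and share their scaling, so the values describe mostly differences between groups. For miR-93-5p they were miR-5099 (0.78), miR-16-5p (0.75) and miR-92a-3p (0.75). For miR-106b-5p they were miR-192-5p (0.92), miR-19b-3p (0.90) and miR-1949 (0.89). For miR-25-3p they were let-7g-5p (0.95), let-7d-5p (0.94) and let-7i-5p (0.93). For miR-92b-3p they were miR-23b-5p (0.86), miR-361-3p (0.85) and miR-125a-5p (0.85). The 4 members had no miRNA in common among these.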

How the data were processed

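Small RNA libraries of 36 mouse CD4 T cell samples were deposited by the authors as raw counts per miRNA entry, per the file headers. Per the submitters' processing notes, reads were set against GRCm38. Which aligner, counter and miRNA release were used, and whether molecular identifiers were, was not given in the sources used here. The labels and the series text differ on single-end or paired-end reads. Of 2110 named entries, the entry with the highest total was kept for each of 1966 names. The 9 STD entries (32.0% to 86.7% of counts) entered neither library sizes nor tests. Each experiment was fitted over all its groups with edgeR 4.0.16 in R 4.3.3 (limma 3.58.1): filterByExpr with a minimum count of 10, TMM, glmQLFit, glmQLFTest and Benjamini-Hochberg adjustment over 382 or 98 miRNAs, or 376 in a fit over both experiments. DESeq2 1.42.0 was an alternative. Ratios used a pseudocount of 0.5 and exact permutation tests (Python 3.11.15, SciPy 1.17.1). Scripts were tested on simulated data. The 48 pairs of replicates differed beyond sampling noise (highest chi-square p = 1.3e-05). The 7 members, the 13 paralogs (named where called between genotypes), the markers and the 3 most correlated miRNAs of 4 members were the miRNAs named, and members and lists were chosen with earlier results of these data known. The comparison of arm ratios over all hairpins, and the fits of miR-25-5p without a filter and with libraries left out, were added after seeing the data.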

Additional observations from a re-analysis of the deposited data

Results flagged for a closer look

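Of 89 groups of 4 or more samples examined, 3 had 1 sample standing far from the others, and chance flags about 1 in 20 groups. miR-93-3p was at 67.0 CPM in naive AGO2 knockout library D, from 1 count, and at 0 in the other 3 libraries of that group. The log2 ratio of miR-106b-5p to miR-93-5p was -4.94 in naive WT library 4, below the other 3. In Th2 day 7 WT library 1, miR-25-3p and miR-92b-3p supplied 63.1% of the miR-25 seed family, more than in the other 3 libraries.

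Effects that differed between groups by a test of the difference itself in edgeR were those of miR-92b-3p between day 14 and day 7 of the AGO134 experiment, at -0.70 on the log2 scale, and 3 differences between the AGO2 effect at day 5 and the AGO134 effect at day 7. These were 4.24 for miR-25-5p, -1.53 for miR-106b-3p and -1.23 for miR-93-5p, in experiments that also differ in depth, day and control genotype.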

How the results depend on the processing

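The number of members called depended on the scaling. In naive AGO134 knockout against WT cells (1 called) it was 2 with DESeq2 size factors, library size only or the DESeq2 test, 5 with STD scaling, and 0 with loess offsets or with the 2 groups alone. At day 7 (3) it was 0 with library size only, STD scaling, loess offsets or no filter. At day 14 (2) it was 1 with DESeq2 size factors, all locus entries or the DESeq2 test, and 0 with library size only, STD scaling or no filter. For the difference of AGO134 effects, day 7 minus naive (0) became 1 with the DESeq2 test, and day 14 minus day 7 (1) became 0 with library size only, STD scaling or no filter. In WT cells, day 14 against day 7 (5) became 3 with DESeq2 size factors, STD scaling, no filter or all locus entries, and day 14 against naive (3) became 5 with loess offsets. In AGO134 knockout cells day 14 against naive (3) became 6 with STD scaling. In the AGO2 experiment, Th2 knockout against Cre (2) became 5 with STD scaling. Cre cells over time (1) became 5 with STD scaling and 0 with loess offsets, the DESeq2 test or without naive libraries B and C. AGO2 knockout cells over time (3) became 1 with no filter or the 2 groups alone, and the difference of AGO2 effects (0) became 2 with STD scaling or all locus entries.

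Counting as a reversal a change of sign where the value passed the test in the reported fit or in the alternative, all 18 came from STD scaling, which moved the median of all tested miRNAs too. Other changes of sign had neither value called, such as miR-25-3p at day 14 of the AGO134 comparison (0.33, with a lowest value of -0.13) and in naive AGO2 knockout cells (-0.27, with 0.35 as the highest with a library left out), and miR-106b-5p in naive AGO134 knockout cells (0.16, lowest -0.58). miR-25-3p had -0.27 (naive) and -0.14 (day 7) for AGO134 knockout against WT, 0.43 for WT day 7 against naive, 0.57 and 0.35 for knockout day 7 and day 14 against naive, -1.49 for AGO2 knockout against Cre Th2 cells and 2.81 for Cre Th2 against naive. miR-93-5p had -0.53 (naive), -0.17 (day 7) and -0.12 (day 14) for AGO134 knockout against WT, 0.67 for knockout day 14 against naive, 2.61 for Cre Th2 against naive and 0.044 for AGO2 knockout Th2 against naive. miR-106b-3p had -0.21 for AGO134 knockout at day 7. miR-92b-3p had 0.20 for AGO134 knockout day 7 against naive, -1.37 for AGO2 knockout against Cre Th2 cells and 1.93 for Cre Th2 against naive, and miR-92a-3p had -0.58 for AGO2 knockout against Cre Th2 cells. The cause of these changes was not tested.

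With single libraries left out, the number called ran from 1 to 2 (naive), 1 to 3 (day 7) and 1 to 2 (day 14) for AGO134 knockout against WT, from 0 to 1 (naive) and 0 to 3 (Th2) for AGO2 knockout against Cre, from 0 to 2 for AGO2 knockout cells and 0 to 1 for Cre cells over time, and from 3 to 5 for WT day 14 against day 7. It ran from 2 to 3 for WT day 14 against naive, 4 to 6 for AGO134 knockout day 7 against naive and 3 to 4 for its day 14 against day 7. It ran from 0 to 1 for the differences of AGO134 effects at both stages and of AGO2 effects. The log2 ratio of miR-25-3p to miR-25-5p ran from 0.62 to 0.99 (naive) and 0.35 to 0.64 (day 7) for AGO134 knockout minus WT, from 1.14 to 1.30 for WT day 7 minus naive, and from -3.29 to -2.79 for AGO2 knockout Th2 minus naive. From summed counts it was -1.31 for naive AGO2 knockout minus Cre.

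Pairing of samples with the same number was not shown: correlations of their deviations ran from -0.27 to 0.16, and in no comparison were all over 0.1. In naive AGO134 knockout against WT cells they ran from 0.03 to 0.16. With 2 to 4 pairs in a comparison, these values cannot exclude pairing. With the replicate block, AGO2 knockout cells over time had 1 member called, and the miR-25 arm ratio differed by 0.85 (naive, exact permutation p = 0.125) and 0.54 (day 7, exact permutation p = 0.125), where 4 pairs allow no smaller p. Depth limits the naive AGO2 comparison most, and miR-93-3p and, in the AGO2 experiment, miR-106b-5p everywhere.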
